A study of Arabidopsis thaliana with 6 samples.

Results

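GH3.3 (AT2G23170) and WES1 (AT4G27260, also named GH3.5) encode acyl acid amido synthetases of the GH3 family, enzymes that join the plant hormone auxin to amino acids. They were chosen by name, with earlier results of these data known, and not as the full set of such enzymes on the array. Each is read by a probe set that names 1 gene, 245076_at for GH3.3 and 253908_at for WES1. They are 2 of 13286 genes with such a probe set, and 2 of the 11 in the GH3 family. The samples were 3 of flowers from transgenic Arabidopsis thaliana plants that overexpress miR159a and 3 of flowers from wild-type Columbia plants, all at flower stage 15. Each sample was hybridised to 1 one-colour array, and each group has replicates lettered a, b and c. The labels name neither the promoter of the transgene, nor the number of transgenic lines, nor the background of the transgenic plants, nor the plants behind a letter. The p-values therefore cover only the variation among these samples, part of which may be technical.

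Auxin acts by making a receptor complex destroy Aux/IAA repressors, which frees auxin response factors to switch on target genes. Several GH3 genes, though not the whole family, are among the fastest of these targets. Their enzymes conjugate indole-3-acetic acid, the main natural auxin, to amino acids such as aspartate. This lowers the amount of free auxin, so that these genes form a feedback on the hormone. WES1 can also use salicylic acid, a defence hormone. miR159a is a microRNA that pairs with transcripts of GAMYB-like MYB transcription factors, which act in anthers and in seeds, and at this stage of flower development the flower is open and its anthers have shed pollen. The question behind the comparison is how the flower's transcripts change under an excess of miR159a. Signals are in linear array units, and the array medians lay between 85.3 and 96.9.

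The arrays lettered a stood apart in both groups on the actin and ubiquitin controls, but not on GAPDH. The ratio of the 5′ to the 3′ signal of the actin control transcript was 0.653 on overexpressor array a and 0.656 on wild-type array a, and between 0.326 and 0.463 on the other 4 arrays. For ubiquitin the ratio was 0.886 and 0.807 on those arrays and between 0.461 and 0.560 on the others. For GAPDH it was 0.774 and 0.801 on the arrays lettered a, within the 0.694 to 0.831 of the others. Results on GH3.3, WES1 and GH3.17 are therefore also given letter by letter and for the arrays lettered b and c alone.

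GH3.3 fell in the overexpressor. Its signal was 190.6, 188.1 and 184.6 on overexpressor arrays a, b and c, against 426.5, 491.2 and 308.0 on wild-type arrays a, b and c. The overexpressor values lay close together and all below the lowest wild-type value, with a gap of 117.4 units between the groups, while the wild-type values were spread widely, b being highest and c lowest. The mean was 188 ± 3.01 in the overexpressor and 409 ± 92.9 in wild type (SD, n = 3 each), so the overexpressor held 46.0% of the wild-type signal. On the scale log2(signal + 16) the log2 fold change was -1.03 (SE 0.19, unadjusted 95% interval -1.48 to -0.59), with adjusted p = 0.0332 from limma fitted over 17059 probe sets. In flowers with many cell types, fewer cells that contain a transcript and less of it per cell cannot be told apart.

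The fall of GH3.3 stood among many. At an adjusted p under 0.05, 2.17% of the tested probe sets were lower in the overexpressor and 0.135% higher, and over all those tested the log2 fold change had a median of 0.04. GH3.3 ranked 343 of 17059 by p, and 2.74% of the tested probe sets had a log2 fold change at or below its own. Groups that did not overlap, with the overexpressor lower, were found for 7.20% of the tested probe sets. An exact two-sided permutation test of GH3.3 alone gave p = 0.1, the smallest that 3 arrays against 3 allow.

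By letter, the overexpressor signal of GH3.3 was 44.7% of the wild-type signal for a, 38.3% for b and 59.9% for c, which are log2 fold changes of -1.10, -1.31 and -0.69. The direction was the same for every letter, and the smallest change was at c, where the wild-type signal was lowest. The size of the change moved little with the arrays used, from -1.22 to -0.89 with any 1 array left out, but the call did not hold in most of these. Without overexpressor array a, b or c the log2 fold change was -1.04, -1.04 and -1.02, with limma adjusted p of 0.0893, 0.0876 and 0.140. Without wild-type array a or b it was -0.99 and -0.89, with limma adjusted p of 0.111 and 0.142, and without wild-type array c it was -1.22, with limma adjusted p = 0.0263. With both arrays lettered a left out it was -1.00 (limma adjusted p = 0.169), and the call also ended with a pseudocount of 1 (log2 fold change -1.09, adjusted p = 0.0608) and with no filter on dim probe sets (-1.03, adjusted p = 0.0546).

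**Figure D1:**
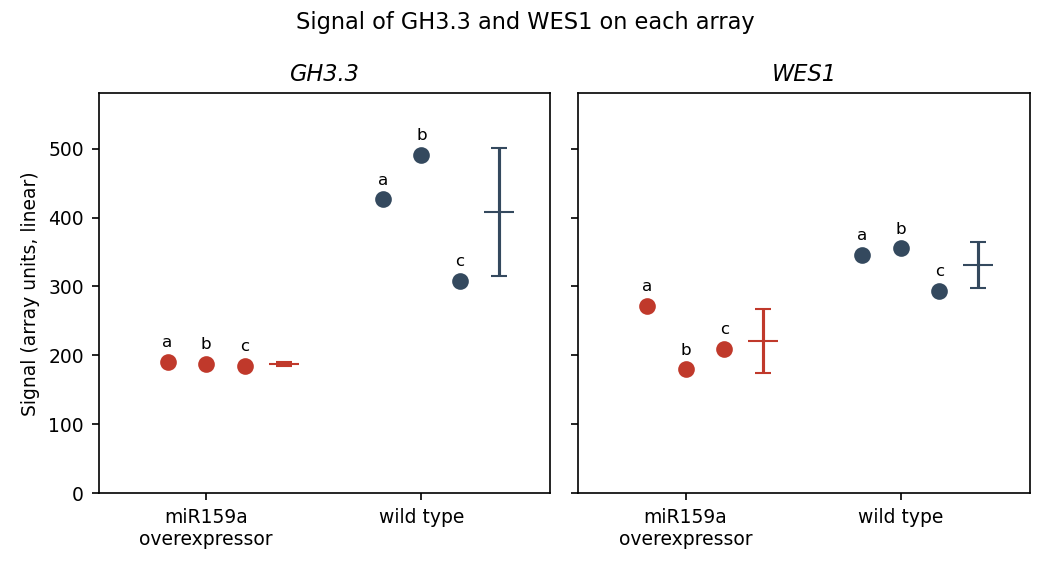
Signal of GH3.3 and WES1 in linear array units on each of the 6 arrays, with the replicate letter above each point, the miR159a overexpressor left of wild type, and the mean ± SD (n = 3) beside each group. The 3 overexpressor points of GH3.3 lie between 184.6 and 190.6, below all wild-type points, while for WES1 the gap between the highest overexpressor point and the lowest wild-type point is 21.7 units.

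The even level of GH3.3 across the overexpressor arrays differed from its spread in wild type. Its coefficient of variation was 1.61% among the 3 overexpressor arrays and 22.7% among the 3 wild-type arrays. On the log2 scale the standard deviation was 0.02 in the overexpressor, and 0.721% of the tested probe sets had a smaller one there. In wild type it was 0.33, with 77.2% of the tested probe sets below it. These spreads rest on 3 arrays each and were not tested against each other.

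WES1, the close relative of GH3.3, was lower on every overexpressor array but did not pass the test. Its signal was 271.7, 180.0 and 209.7 on overexpressor arrays a, b and c, against 345.7, 355.2 and 293.4 on wild-type arrays a, b and c. The groups did not overlap, with the overexpressor lower, as for 7.20% of the tested probe sets, and the gap between them was narrow because overexpressor array a read high. The mean was 220 ± 46.8 in the overexpressor and 331 ± 33.3 in wild type (SD, n = 3 each), so the overexpressor held 66.5% of the wild-type signal. The log2 fold change was -0.57 (SE 0.19, unadjusted 95% interval -1.00 to -0.14), with limma adjusted p = 0.319 and an unadjusted p of 0.0160. The exact two-sided permutation p of WES1 alone was 0.1, again the smallest possible.

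By letter, the overexpressor signal of WES1 was 78.6% of the wild-type signal for a, 50.7% for b and 71.5% for c. The log2 fold changes were -0.33, -0.92 and -0.46. The change was largest at b, as for GH3.3, and smallest at a, where GH3.3 had its middle value. Without both arrays lettered a the log2 fold change of WES1 was -0.69 (limma adjusted p = 0.223). It passed under none of 16 alternatives, among which its log2 fold change ran from -0.72 to -0.44 and its limma adjusted p from 0.128 to 0.752.

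**Figure D2:**
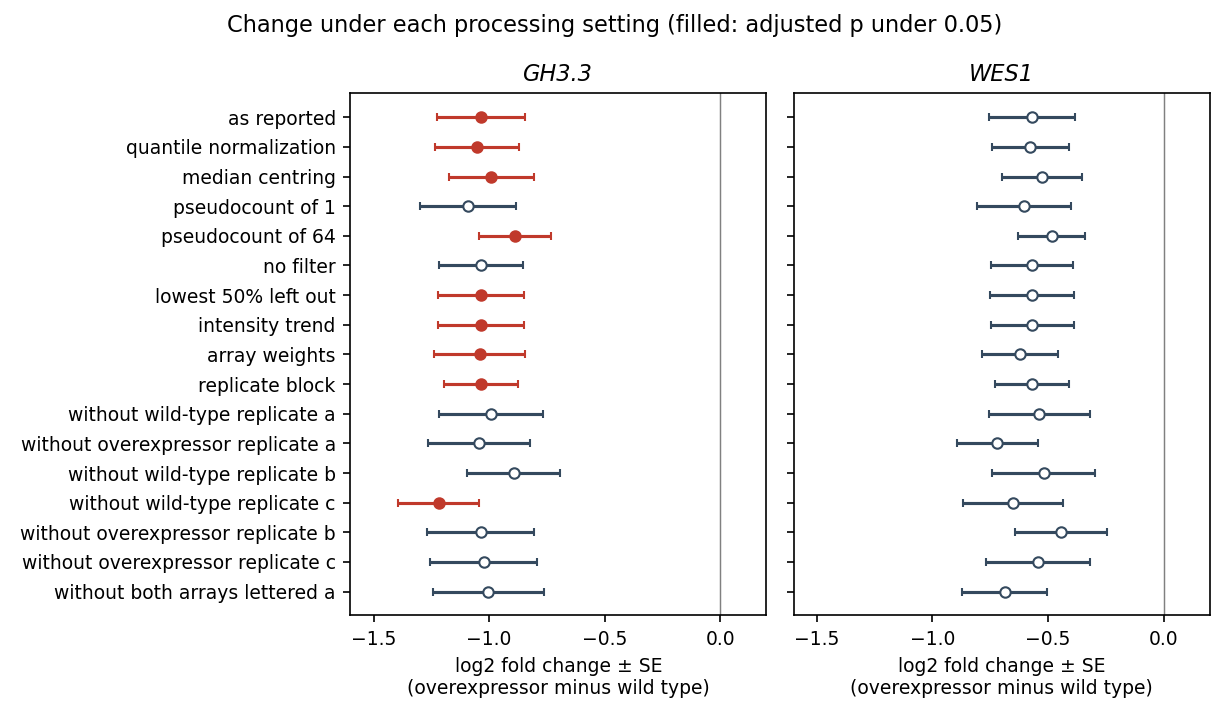
log2 fold change (overexpressor minus wild type) ± SE of GH3.3 and WES1 as reported and under each of 16 alternatives, with filled points where the limma adjusted p was under 0.05. All points of both genes lie below 0, GH3.3 between -1.22 and -0.89 with 8 of its 16 alternatives filled, and WES1 between -0.72 and -0.44 with 0 filled.

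The changes of the 2 genes were compared with each other within each array. The log2 fold change of GH3.3 was lower than that of WES1 by 0.77 for the arrays lettered a, by 0.39 for b and by 0.24 for c, so GH3.3 changed more for every letter. The mean difference was -0.47 (exact two-sided permutation test, p = 0.1, the smallest that 3 arrays against 3 allow), so this test could not pass a threshold of 0.05 and leaves undecided whether the changes differ. Without both arrays lettered a the difference was -0.31 (exact permutation p = 0.333). Across the 6 arrays the log2 signals of GH3.3 and WES1 had a Pearson correlation of 0.880, which the shared difference between the groups contributes to. Of the 9489 other single-gene probe sets compared, 306 were more like GH3.3 than WES1 was, and 106 were more like WES1 than GH3.3 was.

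Both genes were set beside the rest of the GH3 family. Of its 19 genes in Arabidopsis, 11 had a named single-gene probe set, and 4 of these were bright enough to be tested, namely GH3.3, WES1, GH3.17 and GH3.9. Of these 4, GH3.3 fell as described above and the other 3 did not pass. Apart from GH3.3 and WES1, which were chosen by name with earlier results of these data known, 2 were tested. Of those 2, 0 fell and 0 rose, against 2.17% lower and 0.135% higher over all tested probe sets.

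GH3.17, which conjugates auxin to glutamate, had a signal of 572.1, 173.0 and 158.6 on overexpressor arrays a, b and c, against 681.0, 410.3 and 420.4 on wild-type arrays a, b and c. Overexpressor array a lay above 2 of the wild-type arrays, so the groups overlapped, while overexpressor arrays b and c lay far below all wild-type arrays. The log2 fold change of GH3.17 was -0.91 (SE 0.45, 95% interval -1.96 to 0.14, limma adjusted p = 0.677). By letter it was -0.25 for a, -1.17 for b and -1.32 for c. Without overexpressor array a the log2 fold change of GH3.17 was -1.48 (limma adjusted p = 0.0469), and without both arrays lettered a it was -1.25 (limma adjusted p = 0.0440). GH3.17 passed under only these 2 of 16 alternatives, and both leave out the overexpressor array that overlapped wild type. Array a was the highest in wild type too. With all arrays kept and the letter as a block, GH3.17 had a log2 fold change of -0.91 (SE 0.22, limma adjusted p = 0.0883). Without overexpressor array b or c its log2 fold change was -0.66 and -0.60, with limma adjusted p of 0.769 and 0.998.

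GH3.9, another family member, had a signal of 44.7, 43.9 and 45.8 on the overexpressor arrays, against 24.9, 50.4 and 30.2 on the wild-type arrays. Wild-type array b lay above all overexpressor arrays, and the other wild-type arrays below them. The log2 fold change of GH3.9 was 0.28 (SE 0.20, 95% interval -0.18 to 0.75, limma adjusted p = 0.843).

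The other 7 GH3 genes with a probe set, GH3.1 among them, were too dim to be tested. Their signals ran from 0.5 to 20.6 in the overexpressor and from 0.5 to 23.6 in wild type, and their log2 fold changes from -0.46 to 0.61 without a test. For AT1G48670 and AT5G51470 the groups did not overlap, with the overexpressor higher, a pattern shown by 7.46% of the tested probe sets, but all their signals lay at 20.6 or below. Transcripts of the other 8 family genes, including DFL1, JAR1 and PBS3, were not analysed here.

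Other auxin genes were read from lists of auxin synthesis, inactivation, perception, repression, response and transport. The GH3 family was counted whole, whatever the substrate of each enzyme, and with it the lists held 133 genes. Apart from GH3.3 and WES1, 27 of these had a named single-gene probe set and 12 were tested. By limma 0 of the 12 fell and 0 rose at an adjusted p under 0.05, against 2.17% lower and 0.135% higher over all tested probe sets. An unadjusted p under 0.05 was found for 5 of the 12, against 8.79% of all tested probe sets. Without both arrays lettered a, or without overexpressor array a alone, 1 of them fell, the GH3.17 described above. Their median log2 fold change was -0.15, against 0.04 over all tested probe sets. In 4 of the 12 the groups did not overlap with the overexpressor lower, and in 0 with it higher, against 7.20% and 7.46% of all tested probe sets.

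Among inactivating enzymes outside the GH3 family, UGT74D1, which attaches glucose to auxin, had a mean signal of 219 in the overexpressor and 195 in wild type. Its log2 fold change was 0.13, with a wide 95% interval of -0.98 to 1.24 (SE 0.48, limma adjusted p = 0.990). Much of this width lay between the letters, since UGT74D1 was highest on array a and lowest on array b in both groups. In a fit with the letter as a block the SE of UGT74D1 was 0.14 (limma adjusted p = 0.745). AT1G14130 had a log2 fold change of -0.08 (limma adjusted p = 0.983). Neither differed beyond the spread between arrays.

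Auxin synthesis was tested on 2 flavin monooxygenase genes of the YUC family, whose enzymes make indole-3-acetic acid and which together are needed for pollen formation. YUC6 had a signal of 38.4, 35.7 and 16.5 on the overexpressor arrays, against 69.6, 45.1 and 45.3 on the wild-type arrays. The groups did not overlap, but the log2 fold change of YUC6 was -0.60 with limma adjusted p = 0.515. YUC2 had a log2 fold change of 0.20 (limma adjusted p = 0.941), with groups that overlapped. YUC4, too dim to be tested, was higher in the overexpressor without overlap, a pattern shown by 7.46% of the tested probe sets. It read 21.5, 18.1 and 21.0 on the overexpressor arrays, against 11.8, 7.6 and 13.2 on the wild-type arrays.

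Of the Aux/IAA repressor genes, IAA31 had the smallest p of the 12. Its signal was 12.1, 8.5 and 15.1 on the overexpressor arrays, against 26.9, 32.6 and 24.0 on the wild-type arrays, with no overlap, and its log2 fold change was -0.65 (SE 0.16, limma adjusted p = 0.123). The overexpressor signals of IAA31 lay below the pseudocount of 16, so this value understates the difference. IAA30 had a log2 fold change of -0.51 (limma adjusted p = 0.464), again without overlap, and IAA18 had -0.22 (limma adjusted p = 0.919). IAA33 differed the other way, with a signal of 33.5, 17.3 and 43.8 on the overexpressor arrays, against 6.8, 22.9 and 11.7 on the wild-type arrays. Its log2 fold change was 0.67 (limma adjusted p = 0.529), and the groups overlapped because of the arrays lettered b. IAA30 and IAA33 lack the degron through which auxin destabilises other Aux/IAA proteins.

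HAT2, a homeodomain-leucine zipper gene that auxin induces, had a signal of 237.4, 126.7 and 163.4 on the overexpressor arrays, against 303.0, 263.7 and 262.2 on the wild-type arrays. As for WES1, overexpressor array a was the highest of its group and array b the lowest, and the groups did not overlap. The log2 fold change of HAT2 was -0.65 (SE 0.22, limma adjusted p = 0.369). LBD16, which auxin induces in lateral root formation, had a log2 fold change of 0.40 (limma adjusted p = 0.784). The other 8 auxin genes outside the GH3 family that had a probe set (YUC4, YUC11, IAA20, IAA29, IAA34, LBD29, UGT84B1 and AT1G14120) were too dim to be tested, with log2 fold changes from -0.50 to 0.43. Auxin receptors, auxin response factors and auxin transporters were not analysed here.

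**Figure D3:**
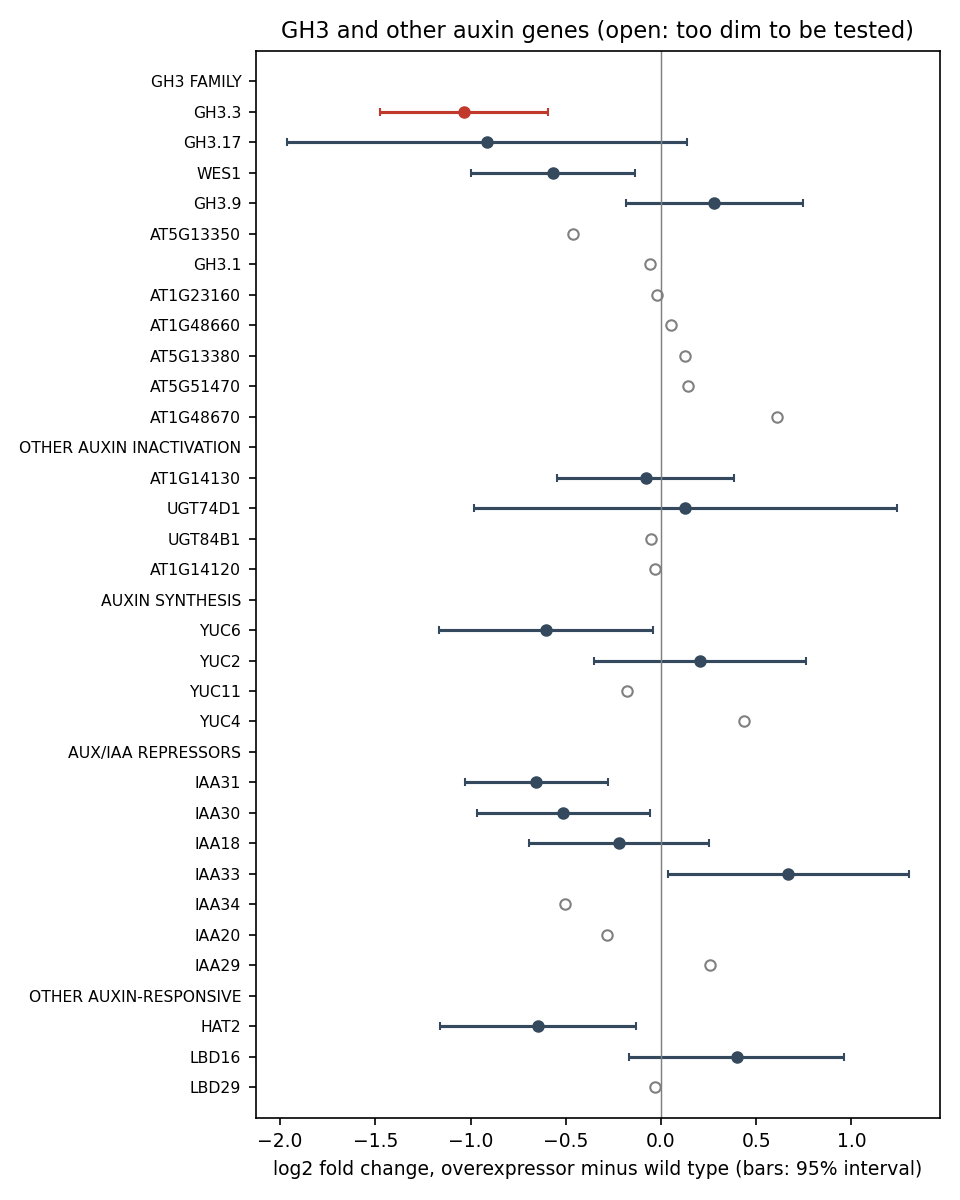
log2 fold change (overexpressor minus wild type) of the 29 genes of the GH3 family and the auxin lists with a single-gene probe set. The genes are grouped by list, with 95% intervals for the 14 that were tested and open points for the 15 too dim to be tested. GH3.3, in red, is the 1 gene past the adjusted threshold, and GH3.17 and UGT74D1 have the widest intervals of the genes tested.

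Marker genes of other cells and organs of the flower were followed on the same arrays. Of 20 markers of mature pollen 13 had a probe set, and their summed signal was 161 to 537 in the overexpressor and 1569 to 3925 in wild type, so the overexpressor held 11.5% of the wild-type mean. Of the 13, 0 were listed at 0 on any array. Overexpressor signals as low as 1.3 (ACT12, array c) and 1.6 (ANX1, array a) do not show that these transcripts were present. Of the 12 tested, 9 fell and 0 rose, against 2.17% lower over all tested probe sets. The list was chosen with earlier results of these data known, so this count is a description and not an independent test. The 3 that did not pass were AGL65, AGL66 and AGL104, with log2 fold changes of -0.12, -0.91 and -0.77. The defining pollen tube receptor genes ANX1 and ANX2 fell, with log2 fold changes of -1.69 and -3.28. Markers of green tissue (4 of 6 with a probe set) summed to 120% of the wild-type mean and carpel markers (5 of 9) to 119%. Of these 9, 0 passed the limma test and 0 had an unadjusted p under 0.05. For 2 of the 5 carpel markers, NGA2 and ALC, the groups did not overlap, with the overexpressor higher, against 7.46% of all tested probe sets. For 0 of the 4 green tissue markers were the groups apart. Markers of floral organ identity were not analysed here.

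The pollen markers differed widely between the overexpressor arrays, and GH3.3 lay within 6.0 units. On overexpressor arrays a, b and c the pollen sum was 186.8, 537.0 and 161.1, where GH3.3 read 190.6, 188.1 and 184.6. On wild-type arrays a, b and c the pollen sum was 3924.8, 2185.8 and 1568.8, with GH3.3 at 426.5, 491.2 and 308.0, so both were lowest on wild-type array c but the highest array differed. WES1 was lowest on overexpressor array b, where the pollen sum of that group was highest. The part of pollen number in the change of either gene was not tested.

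**Figure D4:**
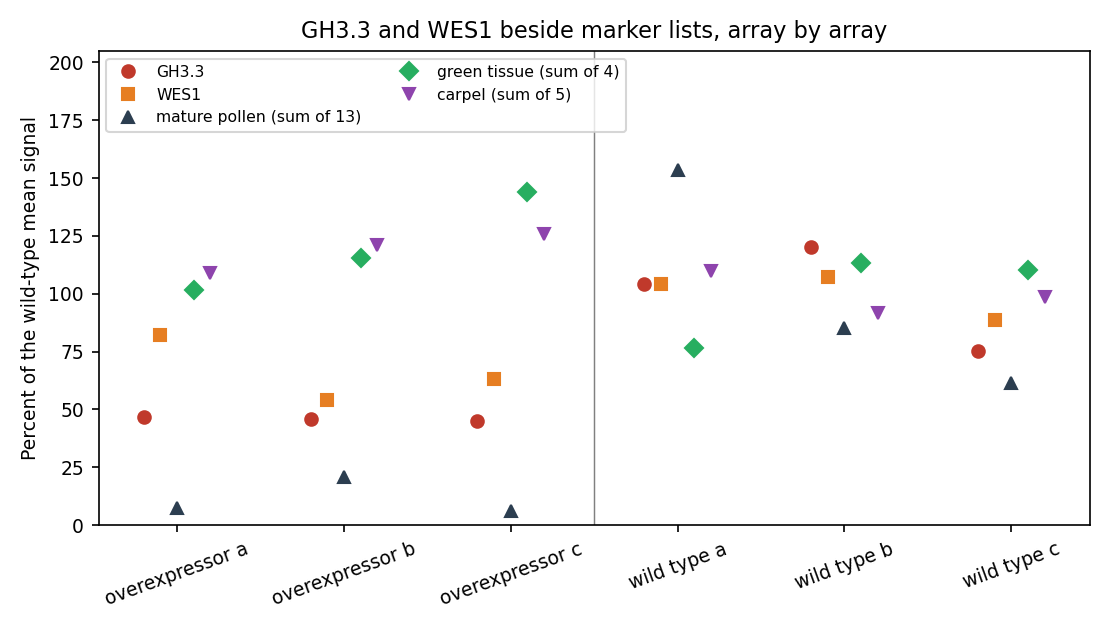
Signal on each array as a percentage of the wild-type mean, for GH3.3, for WES1 and for the summed markers of mature pollen, green tissue and carpel, with the overexpressor arrays left of the wild-type arrays. Pollen markers stand at 7.30%, 21.0% and 6.29% on overexpressor arrays a, b and c, below GH3.3 and WES1 on each of them. Green tissue and carpel markers stand above 100% there, but both overlap wild type. Green tissue markers stand at 113% and 110% on wild-type arrays b and c, and carpel markers at 110% on wild-type array a.

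The single-gene probe sets most like each gene across the 6 arrays were listed by Pearson correlation of log2 signals, as a description over 6 points that the difference between the groups largely shapes. For GH3.3 the 8 closest of 9489 had correlations of 0.971 to 0.989. In order they were AT4G22530, AT4G14810, CYP71B23, BIK1, AT1G19110, AT4G20460, AT2G06820 and AT5G38310, and all 8 were lower in the overexpressor without overlap, against 7.20% of all tested probe sets, a pattern that their likeness to GH3.3 fixes in large part. CYP71B23 encodes a cytochrome P450 and BIK1 a cytoplasmic kinase of immune signalling.

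Among the 8 closest to GH3.3, 1 fell past the test, against 2.17% of all tested probe sets. Nothing is read from this count, since the likeness to GH3.3 chose the genes. AT4G14810 had a signal of 9.7, 13.6 and 7.0 on the overexpressor arrays, against 141.4, 127.1 and 68.0 on the wild-type arrays, and fell by 2.25 on the log2 scale (limma adjusted p = 0.0104). AT4G22530, the closest, had 46.0, 39.3 and 37.5 on the overexpressor arrays, against 85.1, 99.9 and 69.0 on the wild-type arrays. Its order of arrays was that of GH3.3 in both groups, and its log2 fold change was -0.81 (limma adjusted p = 0.0578). BIK1 had a log2 fold change of -0.56 (limma adjusted p = 0.219).

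For WES1 the 8 closest had correlations of 0.968 to 0.990. In order they were SIS, AT3G27700, AT5G35910, AT5G49000, AT1G21050, AT5G42060, AT3G57830 and AT3G59020. SIS had a signal of 82.3, 46.9 and 51.3 on the overexpressor arrays, against 132.9, 137.4 and 103.9 on the wild-type arrays, with overexpressor array a highest of its group as for WES1. Its log2 fold change was -0.91 (limma adjusted p = 0.0946). Of these 8, 0 passed the limma test and 3 had an unadjusted p under 0.05, against 2.17% called lower and 8.79% with such a p over all tested probe sets. Their log2 fold changes ran from -0.91 to -0.17, and for 4 of them the groups did not overlap with the overexpressor lower, against 7.20% of all. Nothing is read from these counts, since the likeness to WES1 chose the genes. The lists closest to GH3.3 and closest to WES1 share no gene.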

How the data were processed

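The authors deposited 1 linear intensity per probe set and array for 22810 probe sets; its software is not given in the sources used here. These deposited intensity values had been scaled, since their mean without the lowest and highest 2% was 200.012 to 200.016 on each array. The number of arrays limits the precision. No 2 arrays held identical values. Array medians spanned 0.16 log2, under the limit of 0.25 set for further normalisation. Left out were 64 control probe sets and, among the rest, the dimmest 25% by mean over all arrays. The log2(signal + 16) values, computed here from the deposited signals, were fitted with limma 3.58.1 in R 4.3.3 (lmFit and eBayes, overexpressor minus wild type, two-sided, Benjamini-Hochberg adjustment over 17059 probe sets, threshold 0.05). The scale understates changes of dim genes. Genes were named from a platform annotation, updated by gene identifier with the RefSeq table of TAIR10.1: of 13513 single-gene probe sets 13436 matched a locus. The array's own build is not named, so no coordinates are given.

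Within-group deviations correlated over probe sets between same-letter arrays (a at r = 0.57, b at 0.36, c at 0.38), and at most 0.10 between other letters. By this check, which comes from the data, the letters were taken to pair the arrays. No label states such a pairing, and the main fit and the exact permutation tests did not use it. The comparison has no block, and a fit with the letter as a block was an alternative, as were array weights, an intensity trend, median centring, quantile normalisation, a pseudocount of 1 or 64, a filter of 50% or none, each array left out, and both arrays lettered a left out. Members, lists and tests were chosen with earlier results of these data known. Named genes were both members, auxin list genes with a probe set, the 8 probe sets most correlated with each member, and markers. The markers of pollen that are named were chosen after their values were seen.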

Additional observations from a re-analysis of the deposited data

Results flagged for a closer look

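A control for 25S ribosomal RNA, outside every comparison, read 3079.6 on overexpressor array a, against 29.6 and 51.2 on the other overexpressor arrays and 11.1 to 32.6 on the wild-type arrays. Its part in the signals of GH3.3, WES1 or GH3.17 on that array was not tested.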

How the results depend on the processing

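The log2 fold changes of GH3.3 and WES1 were below 0 under all 16 alternatives run. GH3.3 kept its call under 8 of them and lost it with no filter (-1.03), under a pseudocount of 1 (-1.09), once both arrays lettered a were left out (-1.00) and with 5 of the 6 single arrays left out (range over the 6 from -1.22 to -0.89). WES1 passed under none, with the fit that takes the letter as a replicate block giving adjusted p = 0.144 by limma against 0.0149 for GH3.3. The block changed no call of an auxin gene, but gave 570 probe sets lower and 71 higher, against 370 and 23. Counts of lower and higher were 209 and 13 with a pseudocount of 1, and 84 and 9 without both arrays lettered a. There were 180 lower with the lowest 50% left out, where fewer probe sets were tested, and 39 higher with array weights. With 1 array left out the lower count ran from 30 to 386 and the higher count from 0 to 16, both lowest without wild-type array b. The counts of lower and higher were 232 and 13 without wild-type array a, 196 and 14 without overexpressor array a, and 166 and 5 without overexpressor array c, and 9 were higher without wild-type array c. Of the 12 other auxin genes tested, 0 fell, except that 1 (GH3.17) fell without both arrays lettered a and with single arrays left out 0 to 1 fell, the 1 without overexpressor array a. The auxin median of -0.15 ran from -0.33 to 0.04, being above 0 without wild-type array c (0.04). Beyond fewer arrays or probe sets, the cause was not tested. Each auxin gene had 1 named probe set, so averaging probe sets left its values as they were. For dim genes the pseudocount limits the size of any change.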
